A study of Homo sapiens with 18 samples.

Results

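The 42 genes described here act in mitosis, from the entry of the cell into division to its separation into daughter cells. They were taken from a list by symbol, and all 42 matched a row of the deposited gene counts, which hold 60609 gene identifiers. All 42 passed the filter on low counts, among 20920 genes tested. The counts come from polyadenylated RNA of a wild-type human cell line of acute myeloid leukaemia, OCI-AML1. For 8 h or 24 h the cells had received AML874, SEL120-34A or only the solvent, DMSO, and each of the 6 groups held 3 libraries. SEL120-34A inhibits both kinases of Mediator, CDK8 and CDK19; Mediator is the complex through which transcription factors reach RNA polymerase II. The name AML874 is a code, and the labels give no dose for either compound, so whether the doses match is not known. The labels do not say whether the 3 libraries of a group came from separate cultures, so each p-value rests on a spread between libraries that may be technical. By its title the series is about inhibition of the Mediator kinases in acute myeloid leukaemia. The comparisons below ask how the genes of mitosis stood with each compound and at each time.

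Entry into mitosis is driven by CDK1, a kinase that needs cyclin A or cyclin B and is switched on by the CDC25 phosphatases. The spindle checkpoint then holds the anaphase-promoting complex back until each chromosome is attached, after which securin is destroyed, separase cuts cohesin, and the contractile ring divides the cell. Many of these genes are transcribed late in the cell cycle by the MuvB complex with MYBL2 and FOXM1, which acts through a promoter element called the cell cycle genes homology region, or CHR, often near CCAAT boxes bound by NF-Y.

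The promoters are shown because their letters are shared by most of the genes and were not used to choose them. Windows of 300 bases, from 250 before to 50 after the start site, came from the RefSeq table for GRCh38.p14, which holds 45 windows for 35 of the 42 genes. The 4 genes with a CHR match and the smallest adjusted p for AML874 at 24 h among those described by library are printed, then 1 without a match. Each sequence runs 5′ to 3′ on the strand of the gene, and capitals mark the letters TTTGAA (CHR) and CCAAT on either strand, so that TTCAAA and ATTGG are the same letters on the other strand.
ANLN, chr7:36389612-36389911, plus strand: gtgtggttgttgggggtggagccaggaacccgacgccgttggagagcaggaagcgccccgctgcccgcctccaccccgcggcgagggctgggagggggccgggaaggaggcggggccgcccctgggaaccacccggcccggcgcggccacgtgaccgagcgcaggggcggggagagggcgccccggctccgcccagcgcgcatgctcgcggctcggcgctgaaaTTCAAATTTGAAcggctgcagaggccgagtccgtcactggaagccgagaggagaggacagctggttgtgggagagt
MKI67, chr10:128126374-128126673, minus strand: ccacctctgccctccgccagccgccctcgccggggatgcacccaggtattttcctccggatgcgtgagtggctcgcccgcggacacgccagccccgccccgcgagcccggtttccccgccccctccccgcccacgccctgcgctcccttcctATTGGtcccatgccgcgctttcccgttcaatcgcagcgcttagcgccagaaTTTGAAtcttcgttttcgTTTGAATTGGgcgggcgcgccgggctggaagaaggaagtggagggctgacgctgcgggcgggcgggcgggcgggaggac
ESPL1, chr12:53268049-53268348, plus strand: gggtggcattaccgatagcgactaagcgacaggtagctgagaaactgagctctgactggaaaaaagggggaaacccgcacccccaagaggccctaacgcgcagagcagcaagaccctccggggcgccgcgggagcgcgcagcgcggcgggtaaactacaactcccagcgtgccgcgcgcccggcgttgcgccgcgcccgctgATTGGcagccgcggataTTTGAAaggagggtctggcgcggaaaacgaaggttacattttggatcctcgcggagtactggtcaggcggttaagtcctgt
CDK1, chr10:60778228-60778527, plus strand: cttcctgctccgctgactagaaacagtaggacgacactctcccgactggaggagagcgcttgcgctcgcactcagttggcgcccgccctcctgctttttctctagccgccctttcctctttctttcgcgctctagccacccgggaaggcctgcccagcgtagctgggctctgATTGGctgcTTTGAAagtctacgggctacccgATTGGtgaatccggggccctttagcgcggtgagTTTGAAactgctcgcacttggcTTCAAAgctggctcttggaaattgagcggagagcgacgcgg
KIF20A, chr5:138178862-138179161, plus strand: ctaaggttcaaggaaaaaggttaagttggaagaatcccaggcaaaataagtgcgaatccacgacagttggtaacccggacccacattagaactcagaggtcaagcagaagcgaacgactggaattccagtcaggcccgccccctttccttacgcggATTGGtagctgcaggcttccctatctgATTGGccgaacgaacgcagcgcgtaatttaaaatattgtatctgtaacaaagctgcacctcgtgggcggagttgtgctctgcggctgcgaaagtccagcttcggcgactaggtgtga

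The ANLN window holds the CHR letters once on each strand, starting 20 and 26 bases before the start site, and no CCAAT. The MKI67 window holds CHR at 47 and 29 bases before the start site, and CCAAT on the other strand at 98 and 24 bases. The CHR at 29 bases shares a base with the CCAAT at 24 bases. In the ESPL1 window 1 CHR stands 31 bases and 1 CCAAT 48 bases before the start. The CDK1 window, the one of 2 with more matches, holds CHR at 69 and 13 bases before the start and at 9 bases after it, with CCAAT at 78 and 46 bases. KIF20A has CCAAT at 94 and 67 bases before the start and no CHR.

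Of the 35 genes with a window, 26 (74.3%) hold the CHR letters, against 18.2% of the 27305 genes of the table. By window the share is 64.4%, against 15.2% of all 35116 windows. The CCAAT letters are in 31 of the 35 genes (88.6%) and in 39.7% of all genes. Both motifs stand together in 57.8% of the windows of these genes and in 5.9% of all windows. Among 119 other mitotic genes from fixed lists, 101 have a window, and 49.5% of them hold CHR and 61.4% CCAAT. The CHR variant TTCGAA is in 2 of the 35 genes, and the E2F letters TTTGGCGC and TTTCCCGC are in 1 each. With AML874 at 24 h the 26 genes with a match had a median log2 change of -0.18, with 18 lower, and the 9 without had -0.19, with 6 lower (23.7% of all genes). Gaps were wider elsewhere, in both directions. In AML874 against SEL120-34A at 8 h the medians were -0.10, with 13 lower, and -0.20, with 7 lower (15.2%). For DMSO at 24 h against 8 h they were -0.09, with 12 lower, and -0.25, with 6 lower (22.7%). For the AML874 effect at 24 h minus that at 8 h they were -0.16, with 16 lower, and -0.06, with 2 lower (12.5%). Whether the motif bears on the changes was not tested. A letter match is a description of the window and not a measured binding site.

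Each library held between 98975944 and 142496541 counts in genes, and 25852 to 28631 genes had a count. Of 10 myeloid markers 9 reached a median of 1 TPM (transcript levels scaled for gene length and depth), with sums of 574 to 922 TPM, and none of the 5 markers each of T, B, erythroid, epithelial or fibroblast cells did. Libraries of a group differed along 1 main axis that held 42.9% of the variance within groups. Targets of HIF, the transcription factor of the low-oxygen response, were among the genes that moved along it, except with AML874 at 8 h, where their order was the reverse. The mean of 21 targets was 5.39 to 6.05 log2 CPM with DMSO at 8 h, 5.20 to 5.26 with AML874 and 5.12 to 5.75 with SEL120-34A. At 24 h these ranges were 6.15 to 6.41, 5.70 to 6.04 and 5.78 to 6.21. The HIF targets thus stood higher with DMSO at 24 h than at 8 h and lower with AML874 than with DMSO at both times, while SEL120-34A overlapped DMSO. Their part in the results below was not tested. Leaving out of each group the library farthest on this axis gave counts of genes of mitosis within 1.5 times of those below in each comparison.

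Per gene length, the order of the genes was led by TOP2A, the topoisomerase that untangles sister chromosomes, at a median of 233 TPM over the 18 libraries (186 to 274). PTTG1, which encodes securin, followed at 190 TPM (147 to 263) and CDC20, an activator of the anaphase-promoting complex, at 188 TPM (136 to 273). BUB3 and CCNB1 both stood at 179 TPM. These neighbours overlapped in their ranges over libraries. KIF18A at 13.5 TPM (11.3 to 15.3) and CDC25C at 11.9 TPM (9.4 to 13.7) were the lowest. Libraries of a group lay close together: the coefficient of variation within groups had a median of 2.41% over the genes, and 37 of 42 genes were under 5%. The other 5, in rising order, were PRC1, ASPM, CENPF, CENPE and NUSAP1.

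NUSAP1 and PRC1, which encode microtubule-binding proteins of the spindle and of the spindle midzone, were almost lost in the counting of reads per gene. NUSAP1 had 51 to 139 counts per library in the gene counts but 15403 to 24404 expected counts in the authors' RSEM table, which shares out reads between overlapping genes. PRC1 had 119 to 173 counts against 14846 to 26228 expected counts. In GENCODE 29, 62.2% of the exonic bases of NUSAP1 also belong to AC087721.2 on the same strand, and 57.6% of those of PRC1 to AC068831.7. The other bases are not shared there, and whether the overlaps account for the loss was not tested. For the other 40 genes the ratio of expected counts to gene counts was 0.887 to 1.14, with BUB1B, which overlaps BUB1B-PAK6, at the top.

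**Figure D1:**
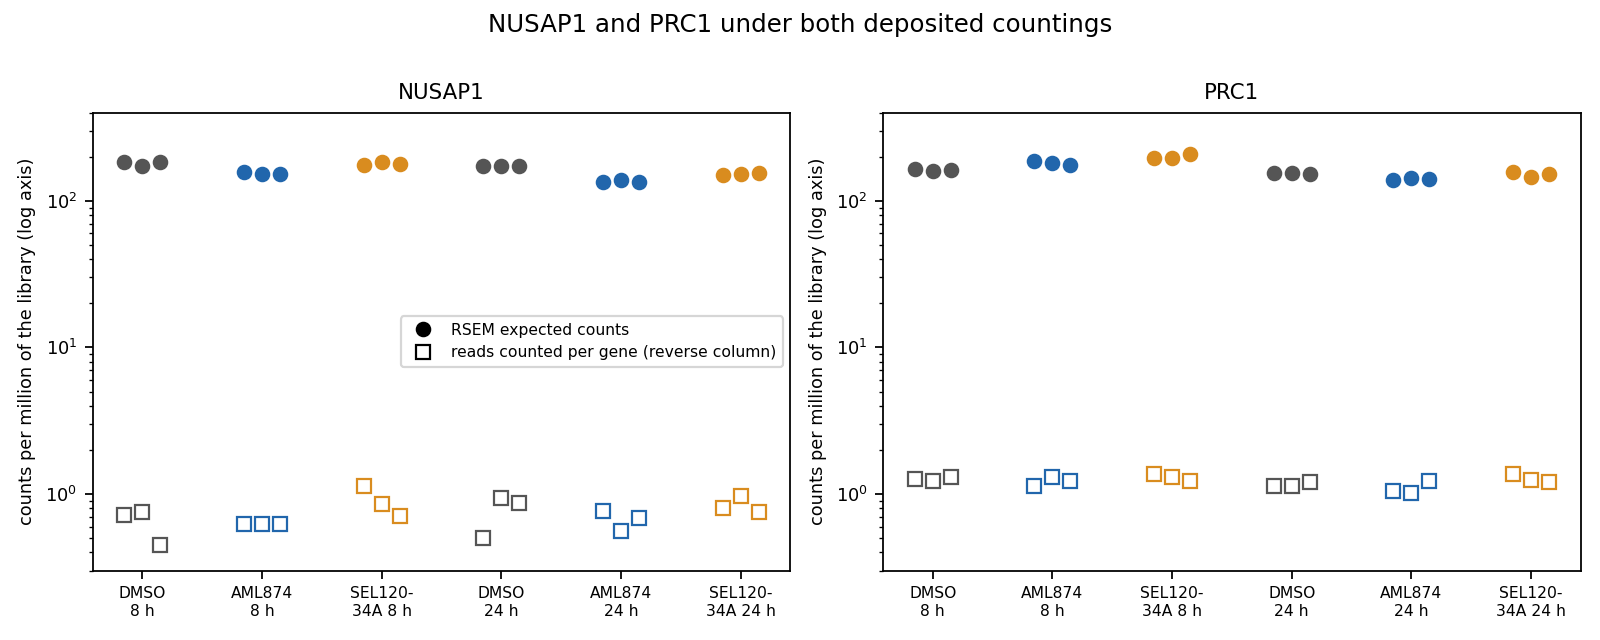
Level of NUSAP1 (left) and PRC1 (right) in CPM on a log axis in each of 18 libraries by group, from the gene counts (open squares) and from RSEM expected counts (filled circles). The expected counts of NUSAP1 lie between 133.7 and 183.4 CPM and those of PRC1 between 139.3 and 207.4 CPM, while the gene counts of both lie between 0.45 and 1.37 CPM.

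These 2 genes are therefore also given from the expected counts, a choice made after their values were seen. In CPM, counts scaled to the library total, NUSAP1 then had 183.4, 171.9 and 182.7 with DMSO at 8 h, 156.6, 152.3 and 151.7 with AML874 and 175.1, 182.9 and 178.6 with SEL120-34A. At 24 h it had 173.3, 173.3 and 173.8 CPM with DMSO, 134.5, 137.6 and 133.7 with AML874 and 150.2, 151.8 and 155.3 with SEL120-34A. The AML874 libraries were below the DMSO libraries at each time, with log2 changes of -0.27 (SE 0.025, adjusted p = 1.81e-09) at 8 h and -0.36 (SE 0.025, adjusted p = 6.46e-12) at 24 h. With SEL120-34A the changes were -0.071 (adjusted p = 0.020) and -0.19 (adjusted p = 1.12e-06). PRC1 had 165.6, 159.0 and 161.3 CPM with DMSO at 8 h, 185.5, 181.8 and 176.3 with AML874 and 197.0, 196.9 and 207.4 with SEL120-34A. It was higher with both compounds at 8 h, by 0.11 (adjusted p = 0.00245) and 0.24 (adjusted p = 1.89e-07) on the log2 scale. At 24 h its change was -0.13 (adjusted p = 6.97e-04) with AML874 and -0.02 (adjusted p = 0.635) with SEL120-34A. The overlapping gene AC068831.7 had 62082 expected counts over all libraries, against 365565 for PRC1. Whether the split of shared reads differed between groups was not tested. The counts of genes below keep NUSAP1 and PRC1 at their gene counts, where neither was called in any comparison with DMSO.

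**Figure D2:**
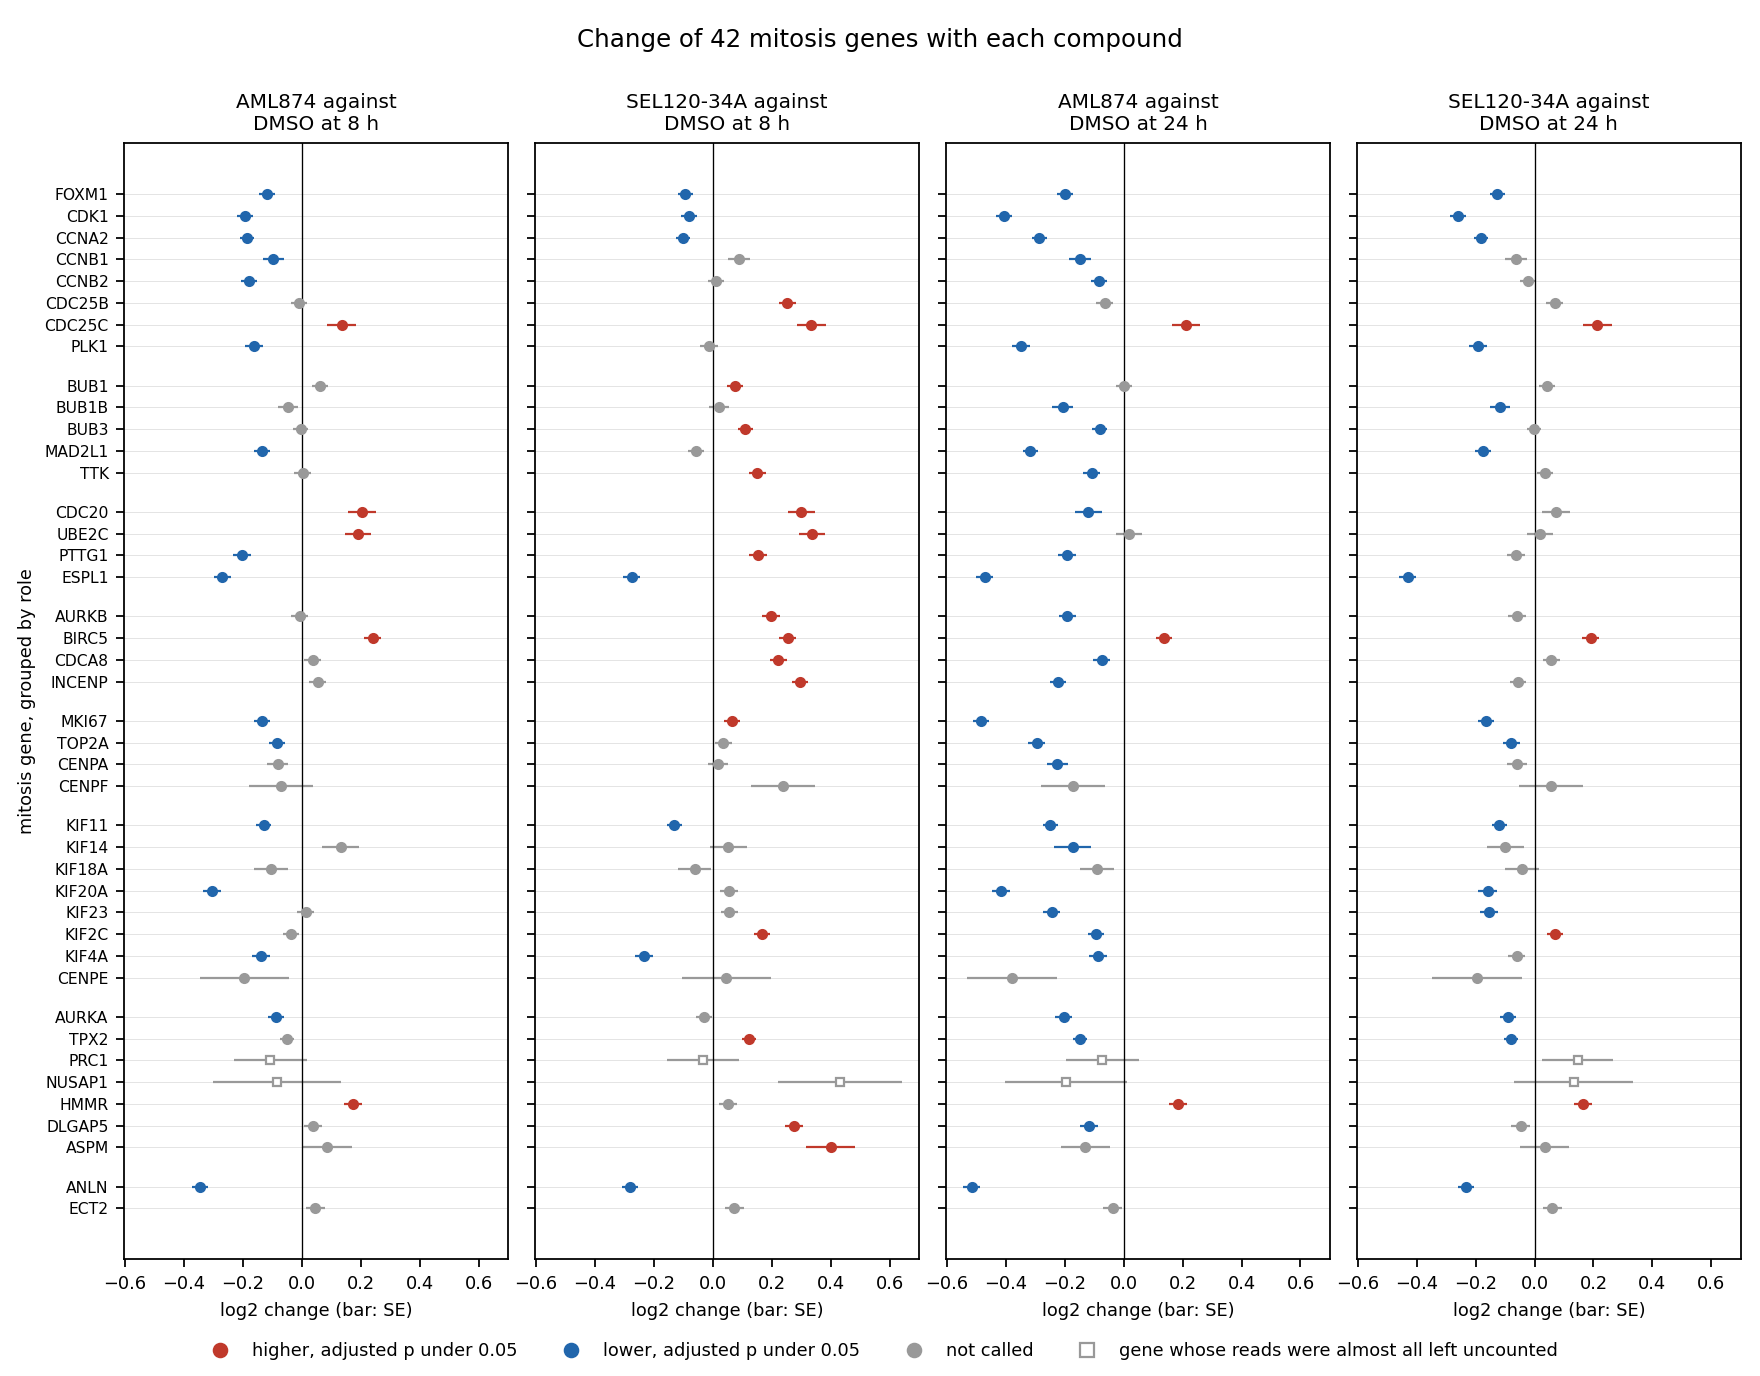
Log2 change (point) and its standard error (bar) of the 42 genes in the 4 comparisons of a compound with DMSO, with genes in rows grouped by role. Blue points are genes called lower and red points genes called higher: 29 and 3 with AML874 at 24 h, and 7 and 17 with SEL120-34A at 8 h.

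After 24 h with AML874, most genes of mitosis were lower than with DMSO. Of the 42 genes 29 were lower and 3 higher at an adjusted p under 0.05, while 23.7% of all genes tested were lower and 23.1% higher. The median log2 change was -0.17, against 0.004 over all genes, and no gene reached a 2-fold change. ANLN fell by 30.1%, MKI67 by 28.5%, ESPL1 by 27.9%, KIF20A by 25.1% and CDK1 by 24.5%. The lower genes came from each role: 6 of 8 entry regulators, 4 of 5 checkpoint genes, 3 of 4 genes of anaphase and exit, 3 of 4 of the chromosomal passenger complex, 3 of 4 of chromosome and kinetochore, 6 of 8 kinesins, 3 of 7 of spindle assembly and 1 of 2 of cytokinesis. The 3 higher genes were CDC25C, BIRC5 and HMMR. In bulk RNA, fewer cells in mitosis and less of these transcripts per cell cannot be told apart. Without 1 library at a time, the lower genes numbered 26 to 30. With a filter of 1 CPM in 3 libraries the calls of CCNB2, BUB3, CDC20, CDCA8, KIF14 and KIF4A were lost (adjusted p from 0.0552 to 0.171). That filter left 23 lower and 3 higher, while 4118 of the 13527 genes it kept were lower and 4340 higher, a larger share than in the main fit. Same-numbered libraries of these 2 groups deviated together, and with the replicate number as a block in a fit of these 2 groups, added after this was seen, 32 genes were lower and 3 higher, CDC25B, CENPF and ASPM being the further ones. That fit called 5372 of 19834 genes tested lower and 5049 higher, against 4966 and 4833 of 20920 in the main fit.

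At 8 h with AML874, 16 of the 42 genes were lower and 5 higher, with 19.9% of all genes lower and 19.7% higher. The median change was -0.08. The lower genes were FOXM1, CDK1, CCNA2, CCNB1, CCNB2 and PLK1 among the entry regulators, MAD2L1, PTTG1, ESPL1, MKI67, TOP2A, KIF11, KIF20A, KIF4A, AURKA and ANLN. CDC25C, CDC20, UBE2C, BIRC5 and HMMR were higher. All 16 genes that were lower at 8 h were also among the 29 lower at 24 h. The share of all genes lower at both times was not counted. When counts were scaled by library totals alone, 13 were lower and 10 higher at 8 h, and AURKA (adjusted p = 0.223), CCNB1 (adjusted p = 0.336) and TOP2A (adjusted p = 0.362) were not called. Of all 20920 genes tested, 3028 were then lower and 5258 higher, against 4162 and 4125 in the main fit. With the filter of 1 CPM 16 were lower and 6 higher, while 3923 of the 13527 genes kept were lower and 3519 higher.

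With SEL120-34A at 8 h more of the genes were higher than lower. Of the 42 genes 17 were higher and 7 lower, with 22.4% of all genes higher and 22.6% lower, and the median change was 0.06. All 4 members of the chromosomal passenger complex were higher, as were 3 of 4 genes of anaphase and exit and 3 of 5 checkpoint genes. FOXM1, CDK1, CCNA2, ESPL1, KIF11, KIF4A and ANLN were lower. Scaling by library totals alone gave 25 higher and 4 lower, and FOXM1, CDK1 and CCNA2 were then not called. All genes moved too: of 20920 tested, 6217 were then higher and 3131 lower, against 4693 and 4732 in the main fit. The 2 comparisons at 8 h share their DMSO libraries, as do the 2 at 24 h.

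With SEL120-34A at 24 h, 15 of the 42 genes were lower and 4 higher, with 18.6% of all genes lower and 19.1% higher. The median change was -0.06. ESPL1 fell by 25.8%, CDK1 by 16.5% and ANLN by 14.9%. CDC25C, BIRC5, KIF2C and HMMR were higher. Of the 7 genes that were lower with this compound at 8 h and the 15 lower at 24 h, 6 were in both, and the same overlap was not counted over all genes.

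**Figure D3:**
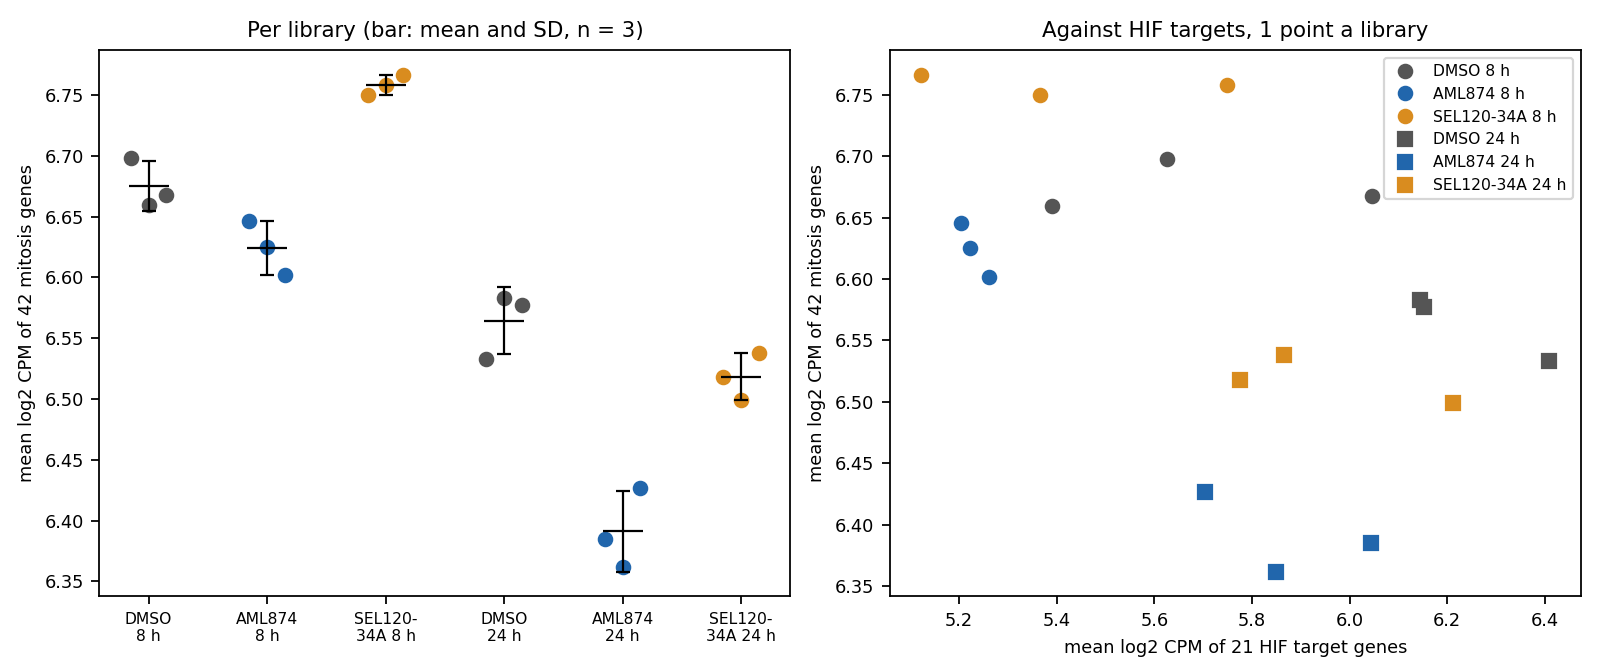
Mean log2 CPM of the 42 genes in each library by group (left; bar, mean and SD of 3 libraries) and the same mean against the mean of 21 HIF targets (right; 1 point a library). The AML874 libraries at 24 h (blue, 6.36 to 6.43) lie below all others, and the SEL120-34A libraries at 8 h (orange, 6.75 to 6.77) above all others.

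Averaged over the 42 genes, the level was 6.68 ± 0.02 log2 CPM (SD, n = 3) with DMSO at 8 h, 6.62 ± 0.02 with AML874 and 6.76 ± 0.01 with SEL120-34A. After 24 h it was 6.56 ± 0.03, 6.39 ± 0.03 and 6.52 ± 0.02. As a share of the TMM-scaled library size, the 42 genes took 0.716% at 8 h in DMSO, 0.685% in AML874 and 0.758% in SEL120-34A. At 24 h the shares were 0.663%, 0.565% and 0.630%, in the same order. These are not shares of the raw counts, and NUSAP1 and PRC1 enter at their gene counts. The 8 h shares and mean levels depend on the scaling. Under library totals alone, median log2 changes over all genes were 0.049 (AML874) and 0.065 (SEL120-34A), against 0.002 and -0.001 under TMM. Under TMM the ranges of the 3 groups in mean level did not overlap within each time, except that SEL120-34A at 24 h (6.50 to 6.54) met DMSO (6.53 to 6.58). At 8 h the highest AML874 library (6.646) stood just below the lowest DMSO library (6.660). Whether they stay apart under library totals was not tested.

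**Figure D4:**
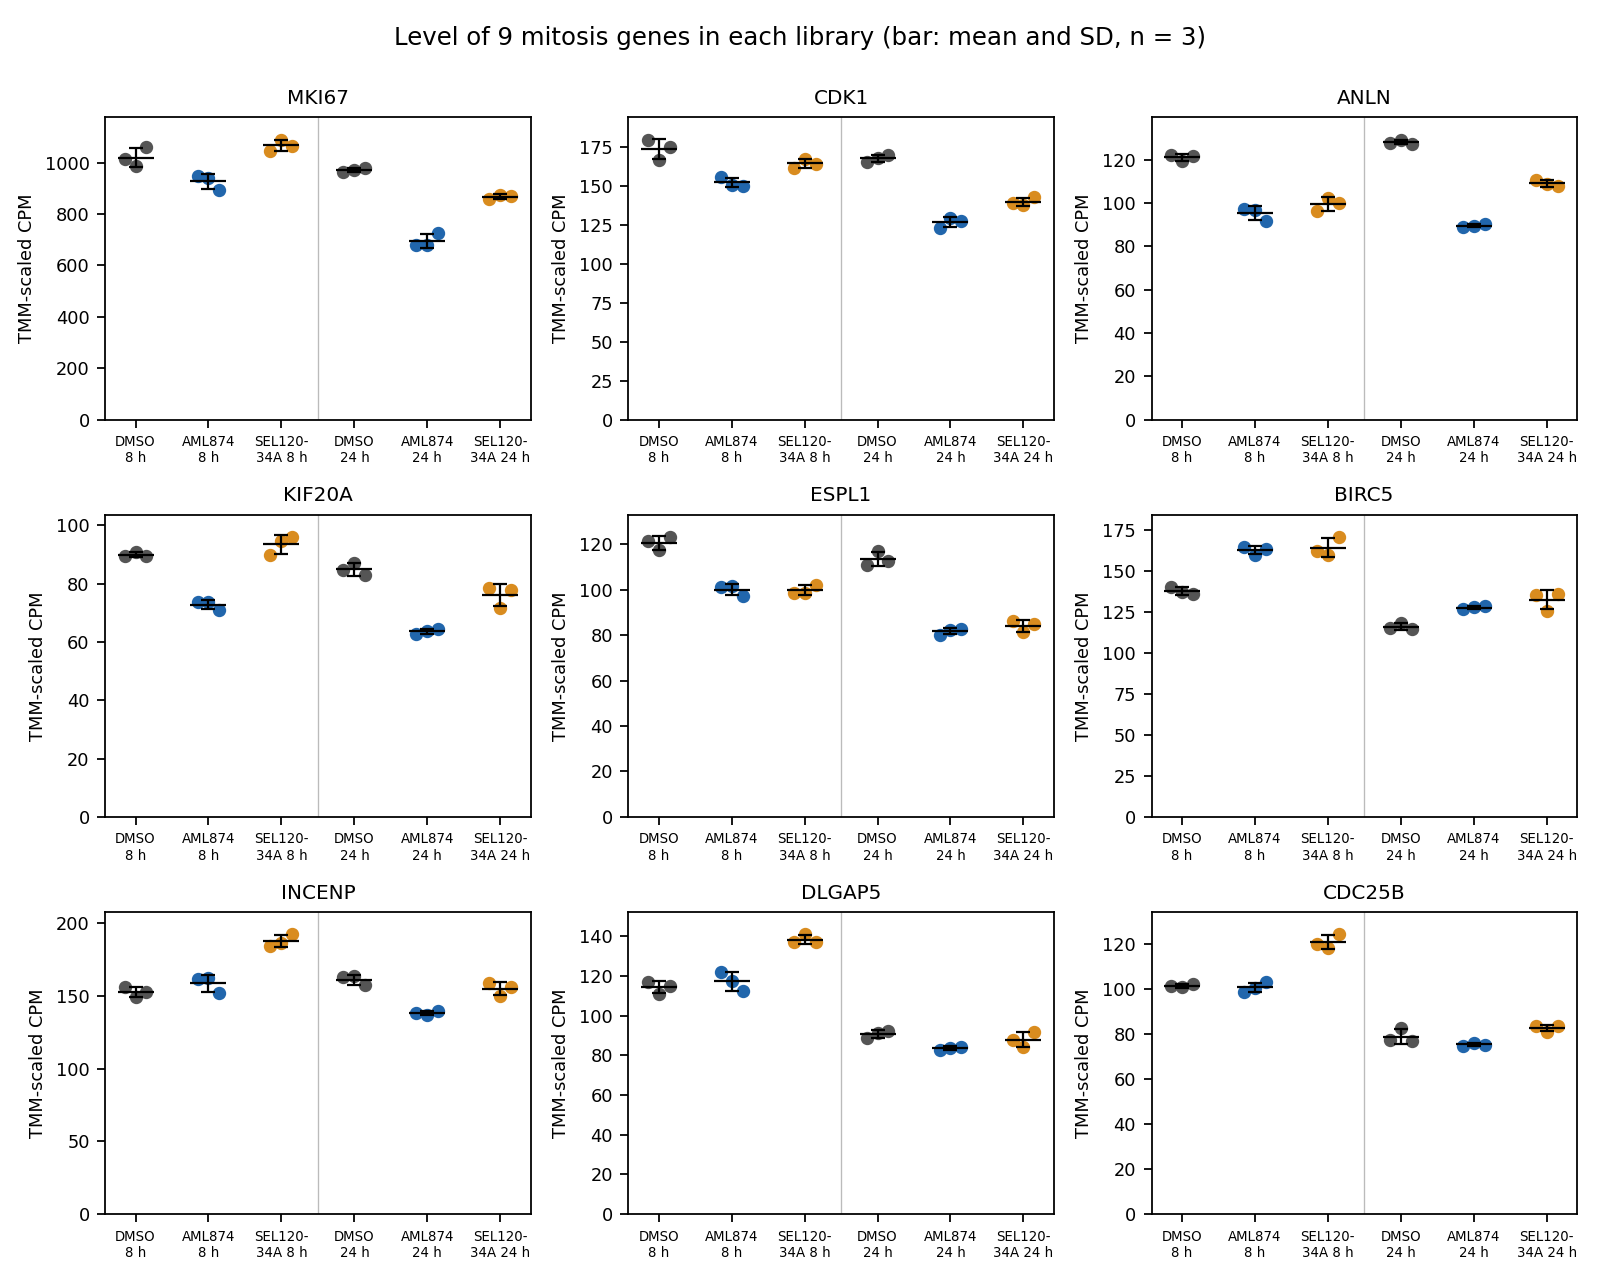
Levels of 9 genes (CPM scaled with TMM, linear axis from 0) in each of 18 libraries by group, with the mean and SD of 3 libraries as bars. MKI67, CDK1, ANLN, KIF20A and ESPL1 are lower with AML874 at both times, BIRC5 is higher with both compounds at both times, and INCENP, DLGAP5 and CDC25B are higher with SEL120-34A at 8 h.

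Among the entry regulators, FOXM1 encodes the transcription factor that many late cell cycle genes share (ENSG00000111206.12, chr12:2857681-2877155, minus strand). It had 168.1, 170.03 and 163.5 CPM in the DMSO libraries at 8 h, 153.00, 153.3 and 156.04 with AML874 and 158.8, 152.6 and 159.1 with SEL120-34A. At 24 h the values were 146.4, 153.2 and 150.4 with DMSO, 129.2, 132.4 and 130.6 with AML874 and 138.5, 133.1 and 140.7 with SEL120-34A. Each compound group lay below the DMSO group of its time with no overlap. The log2 changes were small: -0.12 (SE 0.026, adjusted p = 0.00042) with AML874 and -0.09 (SE 0.026, adjusted p = 0.00398) with SEL120-34A at 8 h, and -0.20 (SE 0.026, adjusted p = 9.4e-08) and -0.13 (SE 0.026, adjusted p = 0.00021) at 24 h.

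CDK1, the kinase that starts mitosis (ENSG00000170312.16, chr10:60778331-60794852, plus strand), had 179.5, 166.7 and 175.02 CPM with DMSO at 8 h, 155.7, 150.6 and 150.00 with AML874 and 161.6, 167.2 and 164.1 with SEL120-34A. After 24 h the values were 165.1, 167.6 and 169.9 CPM with DMSO, 123.1, 129.2 and 127.4 with AML874 and 138.97, 137.8 and 142.6 with SEL120-34A. The AML874 libraries were below the DMSO libraries at both times, and the SEL120-34A libraries at 24 h, while at 8 h the highest SEL120-34A library exceeded the lowest DMSO library. With AML874 the log2 change was -0.19 (SE 0.027, adjusted p = 5.45e-07) at 8 h and -0.40 (SE 0.027, adjusted p = 1.72e-14) at 24 h. With SEL120-34A it was -0.08 (SE 0.027, adjusted p = 0.0157) at 8 h, and this call was lost without replicate 1 of DMSO (adjusted p = 0.0642). At 24 h it was -0.26 (SE 0.027, adjusted p = 1.25e-09).

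The cyclin partners of CDK1 differed. CCNA2, which encodes cyclin A2 (ENSG00000145386.10, chr4:121816444-121823933, minus strand), had 256.5, 253.1 and 253.00 CPM with DMSO at 8 h, 224.5, 221.3 and 224.8 with AML874 and 237.3, 232.99 and 240.4 with SEL120-34A. Its levels at 24 h were 214.5, 215.5 and 209.3 CPM with DMSO, 171.9, 174.1 and 178.4 with AML874 and 188.8, 181.9 and 192.9 with SEL120-34A. It was lower in all 4 comparisons with DMSO, without overlap of libraries, with log2 changes of -0.19 (adjusted p = 1.19e-07) and -0.10 (adjusted p = 0.000801) at 8 h and -0.29 (adjusted p = 6.6e-12) and -0.18 (adjusted p = 2.16e-07) at 24 h. CCNB1, which encodes cyclin B1 (ENSG00000134057.15, chr5:69167010-69178245, plus strand), had 226.5, 217.5 and 217.8 CPM with DMSO at 8 h, 211.4, 202.8 and 204.8 with AML874 and 232.9, 230.7 and 240.8 with SEL120-34A. The libraries of 24 h held 168.04, 173.99 and 170.5 CPM with DMSO, 148.6, 156.01 and 157.8 with AML874 and 170.8, 149.3 and 170.2 with SEL120-34A, and 1 SEL120-34A library stood near the AML874 libraries. CCNB1 was lower with AML874, with a log2 change of -0.10 (SE 0.037, adjusted p = 0.0419) at 8 h and -0.15 (SE 0.037, adjusted p = 0.00191) at 24 h. The call at 8 h was lost without replicate 1 of DMSO (adjusted p = 0.0750) and also without AML874 replicate 2 or 3 (adjusted p = 0.0697 and 0.0595). With SEL120-34A its change was 0.09 (adjusted p = 0.0518) at 8 h, which was not called. Of 11 alternative settings 8, among them limma-voom and the replicate block, called it higher (adjusted p from 0.0022 to 0.0438), and 0 of 6 fits without 1 library did. At 24 h it was -0.06 (adjusted p = 0.199). CCNB2, the gene of cyclin B2, was lower with AML874 at 8 h (-0.18) and 24 h (-0.09), and with SEL120-34A it had 0.01 (adjusted p = 0.748) and -0.02 (adjusted p = 0.544).

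CDC25B and CDC25C encode phosphatases that remove the inhibiting phosphates of CDK1, and neither was called lower in the 4 comparisons. CDC25B (ENSG00000101224.17, chr20:3786772-3806121, plus strand) had 101.04, 100.6 and 102.2 CPM with DMSO at 8 h, 98.5, 100.5 and 102.8 with AML874 and 119.98, 118.00 and 124.1 with SEL120-34A. At 24 h it had 77.1, 82.4 and 76.6 CPM with DMSO, 74.8, 76.02 and 75.2 with AML874 and 83.4, 80.8 and 83.4 with SEL120-34A. All 3 SEL120-34A libraries at 8 h stood above the 6 other libraries of that time, with a log2 change of 0.25 (SE 0.029, adjusted p = 3.78e-09), and the other 3 comparisons with DMSO were not called. With AML874 at 24 h DESeq2 (adjusted p = 0.0268), median-of-ratios factors (adjusted p = 0.0274) and the paired fit (adjusted p = 0.0344) called it lower, and with SEL120-34A at 24 h the filter of 1 CPM (adjusted p = 0.0130) and unstranded counts (adjusted p = 0.0416) called it higher. CDC25C, at 13.2 to 18.4 CPM over the 18 libraries, was higher in all 4 comparisons, with log2 changes at 8 h of 0.14 for AML874 and 0.33 for SEL120-34A, and at 24 h of 0.21 and 0.21. The call with AML874 at 8 h was lost without DMSO replicate 2 or 3 (adjusted p = 0.346 and 0.155) and also without AML874 replicate 1 or 3 (adjusted p = 0.142 and 0.110). PLK1, a kinase of entry and spindle assembly, was lower with AML874 at 8 h (-0.16) and 24 h (-0.35) and with SEL120-34A at 24 h (-0.19).

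In the spindle checkpoint, MAD2L1, whose product MAD2 binds and blocks CDC20 (ENSG00000164109.14, chr4:120055608-120067074, minus strand), had 131.3, 128.4 and 125.98 CPM with DMSO at 8 h, 119.2, 113.6 and 118.5 with AML874 and 123.6, 124.1 and 122.96 with SEL120-34A. After 24 h the values were 112.6, 111.7 and 114.4 CPM with DMSO, 89.2, 92.2 and 90.7 with AML874 and 99.4, 98.04 and 102.6 with SEL120-34A. The AML874 libraries were the lowest at each time. Log2 changes were -0.13 (SE 0.026, adjusted p = 7.56e-05) and -0.32 (SE 0.026, adjusted p = 3.29e-12) with AML874, and -0.06 (adjusted p = 0.0738) and -0.17 (SE 0.026, adjusted p = 1.6e-06) with SEL120-34A. BUB1B, which encodes BUBR1, was lower at 24 h with AML874 (-0.21) and SEL120-34A (-0.12), the latter not without replicate 2 of SEL120-34A (adjusted p = 0.0932). TTK, the kinase that recruits the checkpoint proteins, and BUB3 were higher with SEL120-34A at 8 h (0.15 and 0.11) and lower with AML874 at 24 h (-0.11 and -0.08). BUB1 was called in 1 of the 4 comparisons, at 0.08 with SEL120-34A at 8 h, and that call was lost without any 1 of the DMSO libraries or replicate 2 or 3 of SEL120-34A (adjusted p from 0.0931 to 0.248).

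The genes of anaphase and exit split. ESPL1, which encodes separase (ENSG00000135476.11, chr12:53268299-53293643, plus strand), had 121.5, 117.3 and 123.2 CPM with DMSO at 8 h, 101.3, 101.6 and 97.2 with AML874 and 98.6, 98.4 and 102.2 with SEL120-34A. Its levels at 24 h were 110.8, 116.95 and 112.6 CPM with DMSO, 80.3, 82.4 and 82.7 with AML874 and 86.2, 81.2 and 84.9 with SEL120-34A. All 6 compound libraries of a time lay below its 3 DMSO libraries, and the compounds overlapped each other. The log2 changes were -0.27 (SE 0.029, adjusted p = 1.91e-09) with AML874 and -0.27 (SE 0.029, adjusted p = 9.67e-10) with SEL120-34A at 8 h, and -0.47 (SE 0.029, adjusted p = 1.48e-15) and -0.43 (SE 0.029, adjusted p = 2.91e-14) at 24 h. PTTG1, the gene of securin, which holds separase inactive, was lower with AML874 at both times (-0.20 and -0.19) and higher with SEL120-34A at 8 h (0.15). PTTG1 has near-identical copies in the genome, and reads that align to several places are not in the gene counts. Its ratio of expected counts to gene counts was 0.935, inside the range of 0.887 to 1.14 given above. CDC20 and UBE2C, the activator of the anaphase-promoting complex and its ubiquitin-conjugating enzyme, were both higher at 8 h. Their log2 changes were 0.20 and 0.19 with AML874 and 0.30 and 0.34 with SEL120-34A. At 24 h CDC20 had -0.12 with AML874 (adjusted p = 0.0461), a call lost without replicate 1 or 2 of DMSO or replicate 1 or 2 of AML874 (adjusted p from 0.0880 to 0.177) and with a replicate block in the fit of 6 groups (adjusted p = 0.0575) but not in that of these 2 groups (adjusted p = 0.000157), and UBE2C was not called with either compound.

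In the chromosomal passenger complex, which corrects attachments and guides cytokinesis, BIRC5 was higher in all 4 comparisons. BIRC5, the gene of survivin (ENSG00000089685.15, chr17:78214186-78225636, plus strand), had 140.2, 137.1 and 135.6 CPM with DMSO at 8 h, 164.4, 159.7 and 163.4 with AML874 and 162.2, 159.5 and 170.6 with SEL120-34A. The libraries of 24 h held 115.1, 118.4 and 114.5 CPM with DMSO, 126.4, 127.8 and 128.4 with AML874 and 135.5, 125.8 and 135.7 with SEL120-34A. Each compound group lay above the DMSO group of its time. The log2 changes were 0.24 (SE 0.029, adjusted p = 1.6e-08) with AML874 and 0.25 (SE 0.029, adjusted p = 3.66e-09) with SEL120-34A at 8 h and 0.14 (SE 0.029, adjusted p = 0.000142) and 0.19 (SE 0.029, adjusted p = 1.57e-06) at 24 h.

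INCENP, the scaffold of the complex (ENSG00000149503.13, chr11:62123973-62153163, plus strand), had 156.4, 149.5 and 153.02 CPM with DMSO at 8 h, 161.7, 162.6 and 151.8 with AML874 and 184.5, 186.6 and 192.3 with SEL120-34A. At 24 h it had 162.97, 163.5 and 157.4 CPM with DMSO, 137.99, 137.2 and 139.5 with AML874 and 158.6, 150.3 and 156.3 with SEL120-34A. The SEL120-34A libraries at 8 h were above all others of that time and the AML874 libraries at 24 h below all others of theirs. INCENP was higher with SEL120-34A at 8 h, with a log2 change of 0.30 (SE 0.028, adjusted p = 7.43e-11), and lower with AML874 at 24 h, with -0.22 (SE 0.028, adjusted p = 3.23e-08), and the other 2 comparisons were not called. AURKB, the kinase of the complex, and CDCA8, which encodes borealin, were also higher in the first and lower in the second: 0.20 and 0.22 with SEL120-34A at 8 h, and -0.19 and -0.07 with AML874 at 24 h. The call of CDCA8 at 24 h was lost without replicate 2 of DMSO (adjusted p = 0.166) and also without AML874 replicate 1 or 3 (adjusted p = 0.0953 and 0.0845).

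MKI67, which encodes Ki-67, the coat of mitotic chromosomes used to mark cycling cells (ENSG00000148773.14, chr10:128096659-128126385, minus strand), had 1013.2, 985.9 and 1059.6 CPM with DMSO at 8 h, 948.5, 940.9 and 893.96 with AML874 and 1046.8, 1089.5 and 1066.3 with SEL120-34A. After 24 h the values were 963.8, 973.4 and 980.3 CPM with DMSO, 679.8, 679.6 and 727.8 with AML874 and 857.7, 873.5 and 871.6 with SEL120-34A. At 24 h the 3 groups were separate, with AML874 lowest. The log2 change with AML874 was -0.14 (SE 0.028, adjusted p = 0.000137) at 8 h and -0.48 (SE 0.028, adjusted p = 3.1e-16) at 24 h. With SEL120-34A it was -0.16 (SE 0.028, adjusted p = 1.04e-05) at 24 h, while the value at 8 h, 0.07 (adjusted p = 0.0492), came from overlapping libraries. That call was lost without DMSO replicate 1 or 2 (adjusted p = 0.225 and 0.399) and without any 1 of the SEL120-34A libraries (adjusted p from 0.0712 to 0.350), and with median-of-ratios factors, DESeq2, the replicate block or expected counts (adjusted p from 0.0521 to 0.0794). TOP2A was lower with AML874 at 8 h (-0.08) and 24 h (-0.29) and with SEL120-34A at 24 h (-0.08). Its call at 8 h was lost without replicate 3 of AML874 (adjusted p = 0.0757), and that with SEL120-34A without replicate 3 of DMSO (adjusted p = 0.0523) or replicate 1 of SEL120-34A (adjusted p = 0.0960). CENPA, the histone variant of centromeres, was lower with AML874 at 24 h (-0.22). CENPF, a large protein of the outer kinetochore, was not called against DMSO, but limma-voom called it higher with SEL120-34A at 8 h (adjusted p = 0.0119) and the paired fit lower with AML874 at 24 h (adjusted p = 0.00261). Its libraries were wide apart, for example 332.4, 279.7 and 385.1 CPM with AML874 at 24 h.

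Among the kinesins, the motors that move along microtubules, KIF20A had the largest called changes with AML874. KIF20A, a motor of the central spindle (ENSG00000112984.12, chr5:138178719-138187715, plus strand), had 89.4, 90.96 and 89.5 CPM with DMSO at 8 h, 73.8, 73.6 and 71.1 with AML874 and 89.8, 94.7 and 96.01 with SEL120-34A. Its levels at 24 h were 84.7, 87.3 and 82.9 CPM with DMSO, 62.8, 63.6 and 64.6 with AML874 and 78.6, 71.8 and 77.8 with SEL120-34A. The AML874 libraries were the lowest of each time with no overlap. The log2 changes were -0.30 (SE 0.032, adjusted p = 8.38e-10) and -0.42 (SE 0.032, adjusted p = 3.27e-13) with AML874 and 0.06 (adjusted p = 0.152) and -0.16 (SE 0.031, adjusted p = 0.000104) with SEL120-34A. KIF11, the motor that pushes spindle poles apart, was lower in all 4 comparisons, at -0.13 and -0.13 at 8 h and -0.25 and -0.12 at 24 h. KIF23, a motor of the midzone, was lower at 24 h with both compounds (-0.24 and -0.15). KIF4A, a chromosome-bound motor, was lower with AML874 (-0.14) and SEL120-34A (-0.23) at 8 h and with AML874 at 24 h (-0.09), the last not without replicate 1 of DMSO (adjusted p = 0.0706) or replicate 3 of AML874 (adjusted p = 0.0845). KIF2C, which takes microtubule ends apart at centromeres, was higher with SEL120-34A at 8 h (0.17) and at 24 h (0.07) and lower with AML874 at 24 h (-0.10). The rise at 24 h was lost without any 1 of the DMSO libraries or replicate 1 or 3 of SEL120-34A (adjusted p from 0.0512 to 0.154) and in 6 alternative settings, the replicate block among them (adjusted p from 0.0509 to 0.0980). KIF14 was lower with AML874 at 24 h (-0.17), a call lost in 5 alternative settings (adjusted p from 0.0537 to 0.215) and without replicate 3 of DMSO (adjusted p = 0.162) or replicate 1 or 2 of AML874 (adjusted p = 0.0706 and 0.117). KIF18A and CENPE were not called, but CENPE was lower with AML874 at 24 h by DESeq2 (adjusted p = 0.0285) and limma-voom (adjusted p = 0.00459), and both were lower with AML874 at 8 h in fits of only the groups compared (adjusted p = 0.0239 and 0.0147).

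Of the genes of spindle assembly, DLGAP5, a microtubule-binding protein of the spindle (ENSG00000126787.13, chr14:55148112-55191678, minus strand), had 116.9, 110.9 and 114.7 CPM with DMSO at 8 h, 121.96, 117.5 and 112.3 with AML874 and 136.9, 140.9 and 137.02 with SEL120-34A. The libraries of 24 h held 88.5, 91.4 and 92.2 CPM with DMSO, 82.6, 83.7 and 84.4 with AML874 and 87.7, 83.9 and 91.5 with SEL120-34A. The SEL120-34A libraries at 8 h stood above the rest, with a log2 change of 0.28 (SE 0.031, adjusted p = 2.71e-09), and with AML874 at 24 h the change was -0.12 (SE 0.031, adjusted p = 0.00179). ASPM, a protein of the spindle poles, was also higher with SEL120-34A at 8 h (0.40 (SE 0.082, adjusted p = 0.00138)). AURKA, the kinase of spindle poles, was lower with AML874 at both times (-0.09 and -0.20) and with SEL120-34A at 24 h (-0.09), the call at 8 h not with library totals alone (adjusted p = 0.223). TPX2, which activates AURKA, was higher with SEL120-34A at 8 h (0.12) and lower at 24 h with AML874 (-0.15) and SEL120-34A (-0.08). Without replicate 2 of SEL120-34A at 24 h, the calls of AURKA (adjusted p = 0.0866) and TPX2 (adjusted p = 0.0664) with that compound were lost. HMMR, a microtubule-associated protein, was higher with AML874 at 8 h (0.17) and 24 h (0.18) and with SEL120-34A at 24 h (0.16).

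In cytokinesis, ANLN, which encodes anillin, a scaffold of the contractile ring (ENSG00000011426.11, chr7:36389806-36453791, plus strand), had 122.3, 119.2 and 121.6 CPM with DMSO at 8 h, 97.5, 96.6 and 91.5 with AML874 and 96.1, 102.5 and 100.1 with SEL120-34A. At 24 h it had 127.6, 129.2 and 127.4 CPM with DMSO, 88.8, 89.6 and 90.3 with AML874 and 110.5, 108.9 and 107.7 with SEL120-34A. Every compound library lay below the DMSO libraries of its time, and at 24 h AML874 lay below SEL120-34A. The log2 changes were -0.35 (SE 0.027, adjusted p = 1.6e-12) with AML874 and -0.28 (SE 0.027, adjusted p = 1.48e-10) with SEL120-34A at 8 h, and -0.52 (SE 0.027, adjusted p = 2.45e-17) and -0.23 (SE 0.027, adjusted p = 1.38e-08) at 24 h. ECT2, which switches on RhoA at the cell equator, was not called in the 4 comparisons, but was higher with SEL120-34A at 8 h under library totals alone, the filter of 1 CPM and a fit of only the groups compared (adjusted p from 0.00186 to 0.0347).

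Compared directly, more of the 42 genes were lower than higher with AML874 against SEL120-34A at both times. At 8 h 24 of the 42 genes were lower and 2 higher with AML874, with 15.2% of all genes lower and 16.0% higher, and the median difference was -0.12. PTTG1 differed by -0.36 (SE 0.031, adjusted p = 5.12e-11), KIF20A by -0.36 (SE 0.032, adjusted p = 6.4e-11) and CDC25B by -0.26 (SE 0.028, adjusted p = 6.08e-09). For PTTG1 the AML874 libraries had 82.4, 81.6 and 83.5 CPM and the SEL120-34A libraries 106.8, 101.3 and 108.9. The 2 genes higher with AML874 were HMMR (0.12) and KIF4A (0.10), but 0 were higher without replicate 1 of AML874, and 1 was without replicate 2 of AML874 or replicate 1 or 3 of SEL120-34A. At 24 h 24 were lower and 0 higher, with 11.6% and 8.00% of all genes, and the median was -0.13. At an unadjusted p under 0.05 there were also 0 higher, and DESeq2 and limma-voom called 0 higher, with 24 and 25 lower. MKI67 differed by -0.32 (SE 0.028, adjusted p = 1.88e-10), ANLN by -0.28 (SE 0.027, adjusted p = 1.51e-09) and KIF20A by -0.26 (SE 0.032, adjusted p = 2.21e-07). Of the 24 genes lower at 8 h and the 24 lower at 24 h, 17 were in both, and the same overlap was not counted over all genes. For ESPL1 and BIRC5 no difference between the compounds was called: the 95% interval of the log2 difference in ESPL1 was -0.05 to 0.06 at 8 h and -0.10 to 0.02 at 24 h, and that in BIRC5 -0.07 to 0.04 and -0.11 to 0.005. With no dose in the labels, these are differences between the treated groups as they were made.

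The genes also differed between the DMSO groups. At 24 h 23 of the 42 genes were lower than at 8 h and 4 higher, with 22.7% of all genes lower and 19.8% higher, and the median change was -0.11. The smallest adjusted p values were those of CDC25B (-0.36 (SE 0.029, adjusted p = 2.07e-12)), DLGAP5 (-0.33 (SE 0.031, adjusted p = 8.22e-11)) and PTTG1 (-0.33 (SE 0.031, adjusted p = 1.35e-10)). All 4 genes of anaphase and exit were lower at 24 h, with CDC20 at -0.39, as were 6 of 8 entry regulators, with CCNB1 at -0.37. The call of ESPL1 was lost without replicate 1 or 3 of either DMSO group (adjusted p from 0.0690 to 0.114) and with library totals alone (adjusted p = 0.211). CDK1 was not called (-0.05, adjusted p = 0.125). Without replicate 1 of DMSO at 8 h, 15 genes were lower, and scaling by library totals alone gave 16 lower and 8 higher. That scaling called 3770 of all 20920 genes lower and 5025 higher, against 4747 and 4151 in the main fit.

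The effect of each compound at 24 h was then set against its effect at 8 h. For AML874, 22 of the 42 genes had an effect at 24 h below that at 8 h and 0 above it, with 12.5% and 11.1% of all genes. At an unadjusted p under 0.05 there was 1 gene above, and DESeq2 and limma-voom called 0 above, with 24 and 20 below. The smallest adjusted p values were those of MKI67, at -0.35 (SE 0.039, adjusted p = 2.43e-08), INCENP, at -0.28 (SE 0.04, adjusted p = 1.89e-06), and KIF23, at -0.26 (SE 0.042, adjusted p = 1.54e-05). Leaving out replicate 1 of AML874 at 8 h gave 11 genes, replicate 2 of DMSO at 24 h 13, and replicate 2 or 3 of DMSO at 8 h 14. For SEL120-34A 22 genes had a lower effect at 24 h and 2 a higher one, with 13.0% and 14.2% of all genes. INCENP differed by -0.35 (SE 0.039, adjusted p = 1.44e-08), DLGAP5 by -0.32 (SE 0.044, adjusted p = 4.99e-07) and TPX2 by -0.20 (SE 0.033, adjusted p = 1.46e-05). The 2 higher were KIF4A (0.17) and HMMR (0.11, adjusted p = 0.0497). Leaving out 1 library ended the call of HMMR in 8 of 12 fits (adjusted p from 0.0535 to 0.168), and KIF4A was not called with library totals alone (adjusted p = 0.0754). Both sets of differences use the same DMSO libraries.

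Other mitotic genes were taken from 6 lists with 119 genes, of which 118 were tested. With AML874 at 24 h 66 of 118 were lower and 11 higher, with 23.7% of all genes lower and 23.1% higher. The lower ones included 14 of 18 genes of condensin and cohesin, with NCAPG at -0.27, 18 of 26 other spindle and cytokinesis genes, with CKAP2L at -0.42, and 17 of 32 other kinetochore genes, with SPC25 of the NDC80 complex at -0.65. Of 17 genes around the anaphase-promoting complex 6 were lower and 5 higher, the latter near the share of all genes, and the lowest were UBE2S, its chain-elongating enzyme, at -0.57 and FBXO5, its inhibitor EMI1, at -0.50. At 8 h AML874 gave 47 lower and 12 higher (19.9% and 19.7% of all genes), with FBXO5 at -0.50 and CENPW, a kinetochore histone-fold gene, at -0.51. With SEL120-34A at 8 h 46 were lower and 33 higher, with 22.6% of all genes lower and 22.4% higher, so that the share higher lay near that of all genes. Of the other spindle and cytokinesis genes 12 of 26 were higher, with KIFC1 and SPAG5 both at 0.29, and NEK2, a centrosome kinase, rose by 0.40. Of condensin and cohesin 10 of 18 were lower, with NCAPD3 at -0.34, as were 7 of 11 regulators of the DREAM and MuvB complexes, with TFDP1 at -0.34 and MYBL2 at -0.28. AML874 at 8 h likewise had 9 of the 18 and 7 of the 11 lower. Of the 11 regulators, 5 were lower with each compound at 24 h. At 24 h SEL120-34A gave 45 lower and 14 higher (18.6% and 19.1% of all genes), with SPC25 at -0.58 and E2F5, a partner of the DREAM complex, at -0.60, and HASPIN, the histone kinase that places the passenger complex, rose by 0.21. In AML874 against SEL120-34A at 8 h 43 were lower and 22 higher (15.2% and 16.0%), with a median of -0.03, and at 24 h 38 and 3 (11.6% and 8.00%). In DMSO over time 54 were lower and 9 higher (22.7% and 19.8%). The AML874 effect over time was lower for 34 and higher for 11 (12.5% and 11.1%). That of SEL120-34A was lower for 30 and higher for 22 (13.0% and 14.2%), with a median of 0.003.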

How the data were processed

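Polyadenylated RNA of 18 libraries was sequenced. The authors aligned reads to GRCh38 with STAR 2.7.1a, per the submitters' processing notes, and deposited read counts per gene in unstranded, forward and reverse columns. They also deposited RSEM 1.3.2 results with expected counts and TPM. The annotation release is not given in the sources used here, and positions are from GENCODE 29. Reverse counts were used, and the summary lines, 21.9 to 25.5% of reads, were left out.

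Genes were filtered with filterByExpr (20920 kept), scaled with TMM and fitted with the 6 groups in edgeR 4.0.16 (R 4.3.3, robust quasi-likelihood, 12 residual degrees of freedom). Calls are at a Benjamini-Hochberg adjusted p under 0.05 over all genes. The prior count for log2 CPM was 2. Expected counts were rounded for the same fit. The model was also run on simulated counts, drawn independently for each library with the spread of the fit itself. Such counts lack the shared axis within groups, so that run cannot show how the calls behave in these data.

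The members and lists were chosen with earlier results of these data known. Values in each library are given for genes among the first 6 by adjusted p in any comparison with DMSO and for MKI67, CDK1, CCNB1 and FOXM1, and other comparisons name the first 3 called. From each list of other mitotic genes up to 2 with the smallest p could be named. Genes shown for the counting of reads, single-library dependence or role were named after their values were seen. Alternatives were median-of-ratios factors, library totals, DESeq2 1.42.0, limma-voom (limma 3.58.1), other filters, a replicate block, only the groups compared, unstranded counts, expected counts and leaving out libraries. A fit of DMSO and AML874 at 24 h with a replicate block was added after the data were seen, since each of the 3 same-numbered pairs of these groups deviated together (correlations over 0.1), and the labels do not say what a number shares. Over all groups, 13 of 45 same-numbered pairs and 40 of 90 other pairs were over 0.1. Intervals are at 95%.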

Additional observations from a re-analysis of the deposited data

Results flagged for a closer look

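Some effects of a compound differed between 8 h and 24 h by a test of the difference itself (effect at 24 h minus effect at 8 h on the log2 scale, edgeR quasi-likelihood, Benjamini-Hochberg adjusted p under 0.05). For AML874, 22 of the 42 genes had a lower effect value at 24 h, with 12.5% of all genes lower. Without replicate 1 of AML874 at 8 h there were 11, without replicate 2 of DMSO at 24 h 13, and without replicate 2 or 3 of DMSO at 8 h 14. Among the genes described by library or named for this comparison, the difference was -0.35 for MKI67, -0.28 for INCENP, -0.26 for KIF23, -0.21 for CDK1, -0.20 for ESPL1, -0.18 for MAD2L1, -0.17 for ANLN, -0.16 for DLGAP5 and -0.10 for CCNA2. The call of DLGAP5 was lost without replicate 1 of AML874 at 8 h (adjusted p = 0.0620). That of CCNA2 was lost in 9 of 12 fits without 1 library (adjusted p from 0.0524 to 0.110), and also with no filter, the filter of 1 CPM or the farthest library of each group left out (adjusted p from 0.0575 to 0.112).

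For SEL120-34A, 22 genes had a lower effect value at 24 h and 2 a higher one, with 13.0% and 14.2% of all genes. In 8 of 12 fits without 1 library there was 1 higher, HMMR being lost. The difference was -0.35 for INCENP, -0.32 for DLGAP5, -0.23 for MKI67, -0.22 for KIF20A, -0.20 for TPX2, -0.18 for CDK1, -0.18 for CDC25B, -0.16 for ESPL1, -0.15 for CCNB1 and -0.12 for MAD2L1. The call of CCNB1 was lost in 6 of 12 fits without 1 library (adjusted p from 0.0647 to 0.0820), and its difference was -0.09 without replicate 2 of SEL120-34A at 24 h. That of MAD2L1 was lost without replicate 3 of DMSO at 8 h (adjusted p = 0.0583) or 24 h (adjusted p = 0.0608), and with the farthest library of each group left out (adjusted p = 0.0890). INCENP and DLGAP5 were higher with SEL120-34A at 8 h (0.30 and 0.28) and not called at 24 h (-0.06 and -0.05), while CDK1 and ESPL1 were lower at both times.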

How the results depend on the processing

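Of 3931 values of single genes under alternatives, 3702 kept their direction and their side of the threshold, 135 lost and 90 gained a call, and 4 reversed. The 4 reversals were changes of sign that expected counts called and the main fit did not. They were PRC1 with AML874 (0.11) and SEL120-34A (0.24) at 8 h, and NUSAP1 with SEL120-34A at 8 h (-0.071) and 24 h (-0.19). Of 332 counts of genes, 295 stayed within 1.5 times. Library totals alone moved the higher genes to 10 with AML874 at 8 h, 1 in AML874 against SEL120-34A at 8 h, 8 in DMSO at 24 h against 8 h and 0 in the effect of SEL120-34A over time, and the lower genes to 4 with SEL120-34A at 8 h. The median log2 change over all genes then stood at 0.049, -0.018, 0.047, -0.070 and 0.065 in these comparisons, in the same order. The filter of 1 CPM gave 7 and unstranded counts 2 higher genes in DMSO over time, and the filter of 1 CPM and expected counts 1 in the effect of AML874 over time. Of the 13527 genes it kept, the filter of 1 CPM called 4021 and 2746 higher in these comparisons. With SEL120-34A it gave 20 higher and 7 lower at 8 h, with 3839 and 4181 of all genes kept. At 24 h it gave 6 and 14, with 3707 and 3408. For SEL120-34A over time, median-of-ratios factors, DESeq2, limma-voom, no filter, the replicate block, unstranded counts, expected counts and the fit of only the groups compared each gave 1 higher gene. The causes of these moves were not tested.

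Leaving out 1 library at a time gave these ranges of higher and lower genes. With AML874 they were 4 to 5 and 14 to 18 at 8 h, and 3 to 3 and 26 to 30 at 24 h. With SEL120-34A they were 15 to 16 and 6 to 8, and 3 to 6 and 12 to 15. Between the compounds they were 0 to 2 and 21 to 24 at 8 h, and 0 to 0 and 19 to 29 at 24 h. In DMSO over time they were 4 to 6 and 15 to 20, and for the effects over time 0 to 1 and 11 to 19 with AML874 and 1 to 2 and 16 to 22 with SEL120-34A. Same-numbered libraries of 2 groups had correlations of deviations from group means from -0.68 to 0.62, with 13 of 45 over 0.1 and a median of 0.003. Differently numbered libraries had -0.673 to 0.721, with 40 of 90 over 0.1 and a median of 0.055. Taken over all groups, same-numbered libraries were thus not more alike than others. All 3 same-numbered pairs were over 0.1 in 2 of 15 pairs of groups: DMSO and AML874 at 24 h (0.256 to 0.473), and SEL120-34A at 8 h and 24 h (0.25 to 0.621). The labels do not say what a number shares. The fit of 6 groups with a replicate block gave 28 lower genes with AML874 at 24 h, against 29, and 17 higher with SEL120-34A at 8 h, against 17. In the comparisons with DMSO and among the genes named for the effects over time, it ended the calls of CDC20 with AML874 at 24 h, of MKI67 at 8 h and KIF2C at 24 h with SEL120-34A, and of HMMR in the effect of SEL120-34A over time (adjusted p = 0.0634), and it called CCNB1 higher with SEL120-34A at 8 h. The fit of DMSO and AML874 at 24 h alone with a replicate block gave 32 lower and 3 higher, with 5372 lower and 5049 higher among the 19834 genes it tested. From the mean count per library, counting error alone gives a coefficient of variation of 10.5% for NUSAP1, 8.22% for PRC1 and 2.25% for CDC25C, whose libraries had a median of 2.55% within groups, and of at most 1.74% for the other 39 genes.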
